A study of Mus musculus with 15 samples.

Results

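The integrated stress response genes described here are 10 genes controlled by, or acting with, the transcription factor ATF4: Atf4, Atf5, Ddit3, Asns, Chac1, Trib3, Psat1, Phgdh, Sesn2 and Shmt2. They were chosen by gene symbol, and all 10 were found among the 53379 genes of the expression table. RNA of mouse fetal liver hematopoietic cells transformed with the fusion oncogene MLL-ENL, a chimeric transcription regulator of acute leukemia, was sequenced in 15 libraries that form 5 groups of 3. The cell lines came from 2 clones, C1 and C2, started from different mice, and all were grown in IMDM with 10% FCS and IL-3 at 10 ng/ml. The WT lines of C1 and C2 carried floxed Cebpa and Cebpb alleles (Cebpa fl/fl Cebpb fl/fl) that had not been deleted, and their labels name no added expression construct. The dKO lines of C1 and C2 had lost both Cebpa and Cebpb and carried a GFP vector. The LAPS line, used here in C1, was the dKO line expressing GFP and the rat C/EBPβ isoform LAP*, the longest form of that protein. Deletion and GFP vector cannot be told apart in the comparison of dKO with WT. Each dKO line was grown from a rare survivor of Cre treatment and so stands for 1 clone. The 3 RNA samples of a line were taken at different times, so p-values measure the spread between samples of 1 line and not between independent deletions.

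The integrated stress response begins when kinases that sense lack of amino acids, endoplasmic reticulum stress, lack of heme or viral RNA phosphorylate the translation factor eIF2α. Protein synthesis then falls in general, while the mRNA of Atf4 is translated more, so its mRNA level is only part of the control of ATF4. ATF4 is a basic leucine zipper factor that dimerizes with C/EBP family members and binds a composite site, the C/EBP-ATF response element, in front of genes for amino acid synthesis, amino acid transport and redox balance. CHOP, the product of Ddit3, is itself a C/EBP family member.

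The composite site is shown for the 3 genes that hold it near their start, because it is named for the binding of C/EBP and ATF factors. RefSeq promoter windows (build GRCm38.p6, 250 bases before to 50 bases after a transcript start) were available for all 10 genes as 12 windows. The motif TGATGNAA, searched on both strands (TTNCATCA on the other), was present in 3 of these 12 windows, those of Asns, Chac1 and Trib3, and in 3.97% of all 32851 windows. Capitals mark the motif, each sequence is given 5′ to 3′ on the strand of the gene, and the regions are chr6:7693214-7693243 (minus) for Asns, chr2:119351038-119351067 (plus) for Chac1 and chr2:152344028-152344057 (minus) for Trib3.
Asns: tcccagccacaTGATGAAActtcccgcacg
Chac1: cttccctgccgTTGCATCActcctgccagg
Trib3: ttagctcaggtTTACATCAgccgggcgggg
Positions are counted from the RefSeq start, which differs from the end of the GENCODE gene whose coordinates are printed below. The match began 23 bases before the start in Asns, on the strand of the gene, and 193 bases before it in Chac1, on the opposite strand. In Trib3 it began at base 15 of the transcript, on the opposite strand. By the GENCODE coordinates, the Asns match lies inside the gene and the Trib3 match before it. A match describes the letters of the window and not a bound site, and the windows of the other 7 genes simply lacked these letters.

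Libraries held between 9212237 and 13613500 reads on genes (median 11885279), and values are reads divided by a size factor per library, called normalized reads below. Cebpa and Cebpb were listed at 0 in all 6 dKO libraries, which checks the labels. In LAPS, Cebpb stood at 3106 ± 961 normalized reads (SD, n = 3), which holds reads of the rat construct. Of 5 hematopoietic and myeloid markers, all 5 were expressed, with a sum of 10898 to 25532 normalized reads in WT libraries and 32001 to 88499 in dKO libraries. Mpo, myeloperoxidase, made most of that rise, from 14174 ± 1488 to 69702 ± 9398 in C1 and from 2798 ± 1099 to 22686 ± 5837 in C2 (SD, n = 3). Kit also rose in both clones (log2 change 1.195 in C1 and 2.16 in C2, limma adjusted p = 7.98e-07 and 1.13e-09), as did Fcgr3 (0.36 and 0.66, adjusted p = 0.00158 and 7.19e-06). Itgam rose in C1 (0.70, adjusted p = 0.0127) and was at 0.06 in C2 (adjusted p = 0.844), and Ptprc rose in C2 (0.40, adjusted p = 0.028) and was at -0.31 in C1 (adjusted p = 0.0825). Of 4 hepatocyte markers, Alb, Apoa1 and Ttr were at 0 in all 15 libraries, and Afp stood at 31.9 ± 4.57 in WT and 8.49 ± 1.78 in dKO in C1, and at 129.8 ± 30.8 and 78.7 ± 5.43 in C2. Of 4 stromal and endothelial markers, Cdh5 was at 0 in all libraries, and Pecam1, which blood cells also express, ranged from 117 to 570.02. The sums of the erythroid and lymphoid lists reached at most 18.33 and 13.6 normalized reads. Mpo, Kit, Fcgr3 and Afp moved with the dKO groups in both clones, beside each result of the dKO comparisons, and their part in those results was not tested. In these bulk samples, a different mixture of cell states and a different RNA level per cell cannot be told apart.

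All 10 genes were among the 12673 that passed the filter on low values, a level of 10 normalized reads or more in any 3 libraries. In normalized reads per kilobase of exon, a scale on which genes can be compared, Atf4 was highest, with group means from 2279 to 2841. Shmt2 (1325 to 1952), Psat1 (884 to 1565), Phgdh (510.5 to 1723) and Asns (712 to 1086), all enzymes of amino acid and one-carbon metabolism, followed. Chac1 (61.7 to 99.4), Ddit3 (43.2 to 94.5) and Trib3 (57.3 to 235) were lowest in 4 of the 5 groups, whereas in C2 WT Trib3 (235) stood above Sesn2 (176). The coefficient of variation within a group reached 56.0% for Trib3, 44.0% for Chac1 and 36.6% for Ddit3, against at most 23.4% for the other 7 genes. In single groups the order of the spread differed, since Ddit3 had only 5.87% in C1 dKO.

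**Figure D1:**
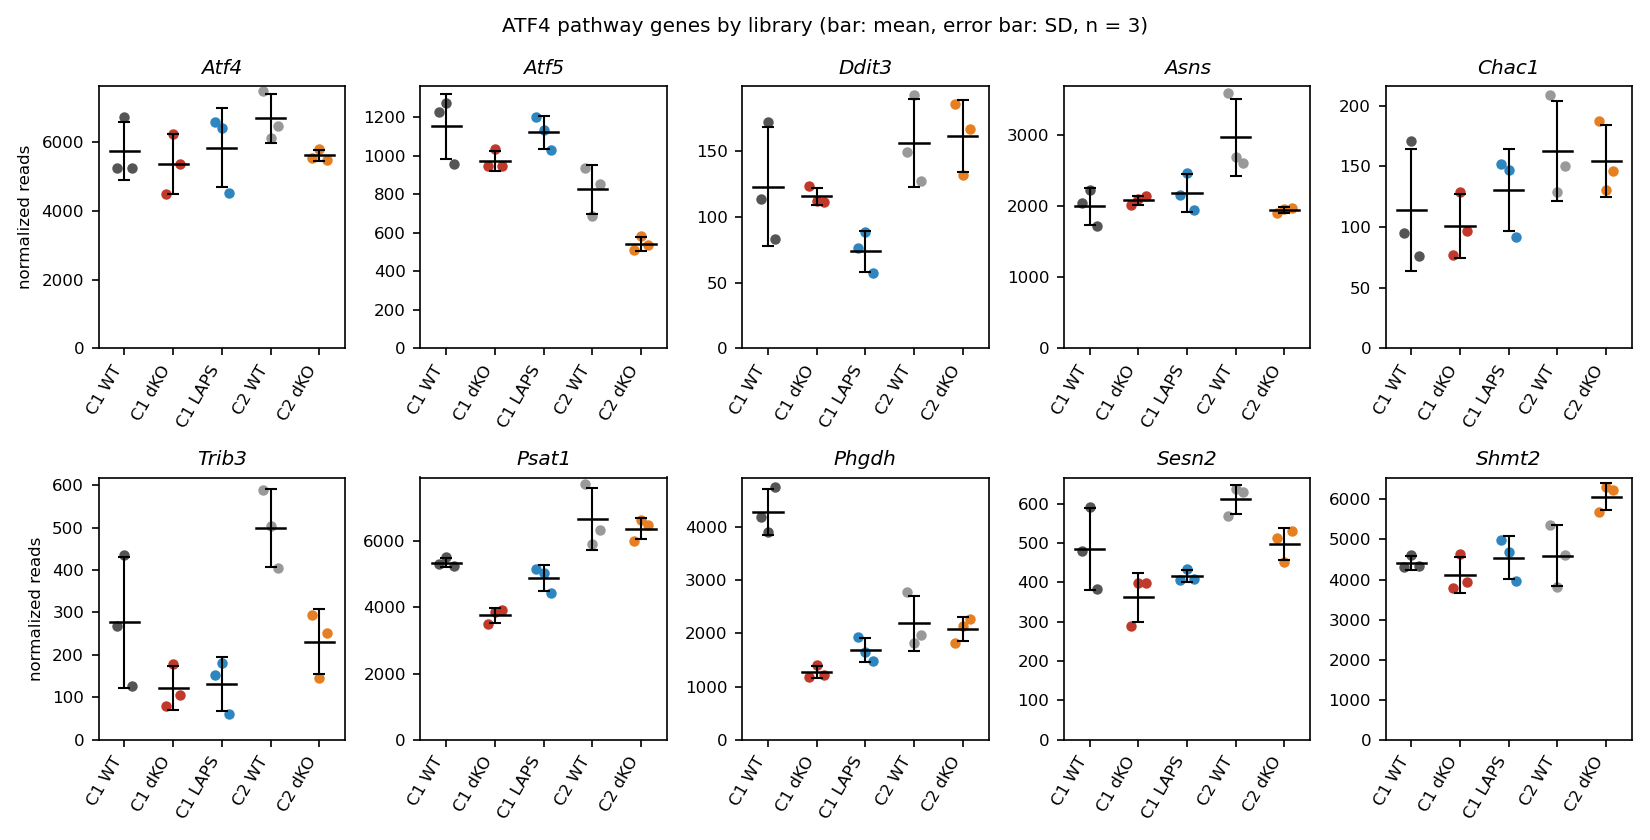
Normalized reads (vertical axis, linear from 0) of the 10 genes in each of the 15 libraries, by group (horizontal axis), with the group mean as a bar and the SD as an error bar (n = 3). Phgdh is high in the 3 WT libraries of C1 (3907 to 4750.4) and at 2773 or below in the other 12, and Trib3 spans 126 to 436 within C1 WT alone.

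In a direct test of the dKO effect between the clones, 4 of the 10 genes differed (Phgdh, Psat1, Shmt2 and Asns; 40%, background 29.4%, with 15.1% higher and 14.3% lower in C2), and the other 6 did not pass. In C1, 3 of the 10 genes were lower in dKO than in WT (Phgdh, Psat1 and Sesn2) and none was higher at a limma adjusted p under 0.05. In C2, Atf5 and Asns were lower and Shmt2 was higher. The shares called, 30% of the genes in each clone, lay near the background of all tested genes, 37.0% in C1 (17.1% higher and 19.9% lower) and 37.6% in C2 (17.4% higher and 20.1% lower), so the count of changed genes does not set this group apart. The median log2 change of the 10 genes was -0.18 in C1 and -0.16 in C2, beside -0.01 and -0.03 over all tested genes. The C1 median depended on single libraries, and was larger in size without C1 WT replicate 3 and smaller without C1 WT replicate 2. Libraries of WT and dKO did not overlap for 2 of the 10 genes in C1 and for 6 in C2, where the background shares were 45.2% and 51.5%. All log2 changes are on the scale of normalized reads plus 1.

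**Figure D2:**
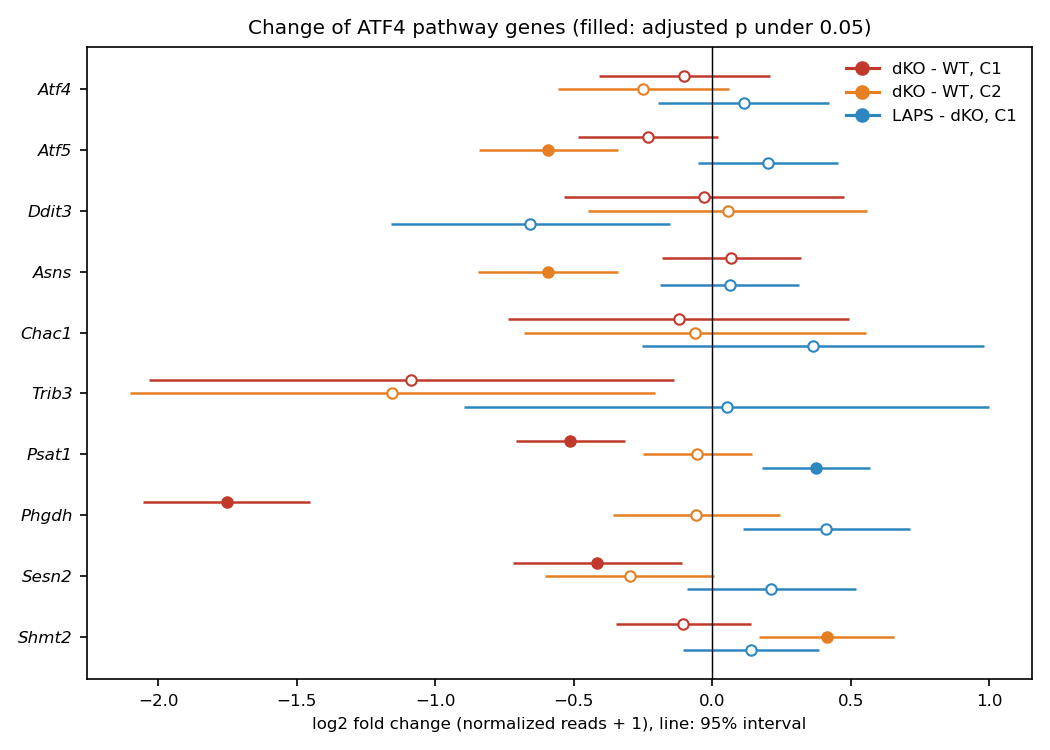
Log2 fold changes (horizontal axis) of the 10 genes (vertical axis) for dKO minus WT in C1 (red), dKO minus WT in C2 (orange) and LAPS minus dKO in C1 (blue), with 95% intervals as lines and filled points where the limma adjusted p was under 0.05. Phgdh in C1 lies at -1.75, far from its C2 value of -0.06, and the 2 Trib3 values (-1.09 and -1.15) have the widest intervals.

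Among the serine pathway enzymes, Phgdh encodes phosphoglycerate dehydrogenase, which opens serine synthesis from a glycolytic intermediate, and lies at chr3:98313170-98339990 (mm10, minus strand). Its normalized reads were 4195, 3907 and 4750.4 in C1 WT, and 1182, 1397 and 1228 in C1 dKO. They were 2773, 1821 and 1973 in C2 WT, and 1822, 2146 and 2264 in C2 dKO. The C1 groups were far apart, whereas in C2 the dKO values lay inside the WT range. Phgdh was 3.37-fold lower in C1 dKO (log2 change -1.75, SE 0.14, limma adjusted p = 1.1e-07). In C2 the change was -0.06 (SE 0.14, adjusted p = 0.787, 95% interval -0.36 to 0.24). The difference between the clones was 1.70 (SE 0.20, adjusted p = 1.5e-05). It kept its call under all 8 processing alternatives, where its adjusted p ran from 4.89e-14 to 6.3e-05. The mean of the WT lines already differed between clones, at 4284 ± 429 in C1 and 2189 ± 512 in C2 (SD, n = 3), and the dKO means were 1269 ± 113 and 2078 ± 229.

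Psat1 encodes phosphoserine aminotransferase, the enzyme after PHGDH in the same pathway (chr19:15904678-15947337, minus strand). Its normalized reads were 5309, 5513 and 5242 in C1 WT, and 3489, 3854 and 3933 in C1 dKO. In C2 they were 7709.97, 5923 and 6336 in WT, and 6011, 6634 and 6495 in dKO. All C1 dKO libraries lay below all C1 WT libraries, and the C2 groups overlapped. The change was -0.51 in C1 (SE 0.09, limma adjusted p = 0.00039) and -0.05 in C2 (SE 0.09, adjusted p = 0.686). The difference of 0.46 between clones (SE 0.13, adjusted p = 0.0146) was no longer called under quantile normalization (0.26, adjusted p = 0.202, lowest of 8 alternatives 0.00637).

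Shmt2 encodes the mitochondrial serine hydroxymethyltransferase, which turns serine into glycine and a one-carbon unit (chr10:127517123-127522444, minus strand). Its normalized reads were 5349.8, 3813 and 4622 in C2 WT, and 5679, 6302 and 6225 in C2 dKO. In C1 they were 4309.7, 4605 and 4325 in WT, and 3792, 4631 and 3938 in dKO. The C2 dKO libraries were all above the C2 WT libraries, and the C1 groups overlapped. Shmt2 was 1.33-fold higher in C2 dKO (log2 change 0.41, SE 0.11, limma adjusted p = 0.00999), and the C1 change was -0.10 (SE 0.11, adjusted p = 0.516). The C2 call was lost without C2 WT replicate 2, the lowest WT library (0.29, adjusted p = 0.0631). The difference between clones (0.52, SE 0.16, adjusted p = 0.0251) was lost under quantile normalization (0.31, adjusted p = 0.194, lowest of 8 alternatives 0.0147). It was also lost without C1 WT replicate 2, C1 dKO replicates 1 or 3, C2 WT replicate 2, or C2 dKO replicates 2 or 3, with adjusted p from 0.051 to 0.068.

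Asns encodes asparagine synthetase, an enzyme whose transcription is induced by ATF4 on amino acid limitation (chr6:7675169-7693254, minus strand). Its normalized reads were 3599, 2695 and 2616 in C2 WT, and 1907, 1963 and 1975 in C2 dKO. In C1 they were 2042, 2231 and 1718 in WT, and 2012, 2097 and 2139 in dKO. The C2 groups were separate, with little spread among the dKO libraries, and the C1 dKO libraries lay inside the WT range. Asns was 1.51-fold lower in C2 dKO (log2 change -0.59, SE 0.12, limma adjusted p = 0.000943), and its C1 change was 0.07 (SE 0.12, adjusted p = 0.691). The difference of -0.66 between clones (SE 0.17, adjusted p = 0.00715) was called under all 8 alternatives. Asns thus ran opposite to Phgdh, Psat1 and Shmt2 in the sign of the clone difference.

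The transcription factors came next. Atf4 itself (chr15:80255184-80257541, plus strand) had 5262, 6733 and 5263 normalized reads in C1 WT, and 4509.7, 6239 and 5375 in C1 dKO. It had 7495, 6119 and 6482 in C2 WT, and 5554, 5809 and 5495 in C2 dKO. The C1 groups overlapped and the C2 groups did not. The log2 change was -0.10 in C1 (SE 0.14, limma adjusted p = 0.627, 95% interval -0.41 to 0.21) and -0.25 in C2 (SE 0.14, adjusted p = 0.196, interval -0.56 to 0.06). Neither passed the test, and the mRNA level does not report how much of it was translated.

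Atf5 encodes a close relative of ATF4 that is also controlled by translation (chr7:44812256-44816658, minus strand). It had 935, 687 and 853 normalized reads in C2 WT, and 511, 582 and 537 in C2 dKO. In C1 it had 1224, 1272 and 959 in WT, and 943, 1033 and 944 in dKO. The C2 dKO libraries were all below the C2 WT libraries, and in C1 the WT library of replicate 3 fell into the dKO range. The change was -0.59 in C2 (SE 0.12, limma adjusted p = 0.00097, called under all 8 alternatives) and -0.23 in C1 (SE 0.12, adjusted p = 0.141). The difference between clones, -0.36, did not pass (SE 0.17, adjusted p = 0.123), except without C2 WT replicate 2 (adjusted p = 0.0326), and the C1 change passed without C1 WT replicate 3 (-0.36, adjusted p = 0.021). The gene span of Atf5 shares 571 bases with that of Nup62 on the opposite strand, at 1807 to 2579 normalized reads. How much of this is exon was not determined, and whether the counting used strand is not given in the sources used here.

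Ddit3 (chr10:127290774-127296288, plus strand) had 114, 172 and 83.55 normalized reads in C1 WT, and 123, 112 and 111 in C1 dKO. It had 149, 193 and 127 in C2 WT, and 186, 132 and 167 in C2 dKO. The groups overlapped in both clones, and the changes were -0.03 (SE 0.24, limma adjusted p = 0.941, 95% interval -0.53 to 0.47) in C1 and 0.06 (SE 0.24, adjusted p = 0.883, interval -0.45 to 0.56) in C2. These intervals are wide enough to hold changes of the size called for Sesn2 in C1. The gene span of Ddit3 shares 68 bases with that of Mars on the opposite strand, and how much of this is exon was not determined.

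Of the genes that dampen or execute the response, Trib3 encodes a pseudokinase that binds ATF4 and limits its activity (chr2:152337422-152344032, minus strand). Its normalized reads were 268, 436 and 126 in C1 WT, and 79.3, 179 and 107 in C1 dKO. In C2 they were 589.55, 503 and 406 in WT, and 295, 146 and 252 in dKO. The C2 groups were separate, and in C1 the WT library of replicate 3 lay inside the dKO range. The change was -1.09 in C1 (SE 0.45, limma adjusted p = 0.0682) and -1.15 in C2 (SE 0.45, adjusted p = 0.0529), so neither passed the test, although in size they exceeded the changes of all other 9 genes in C2 and of all but Phgdh in C1. In C1 the call was gained without C1 WT replicate 3 (-1.56, adjusted p = 0.0093), C1 dKO replicate 2 (adjusted p = 0.0386) or C1 LAPS replicate 3 (adjusted p = 0.0394), whereas the change shrank to -0.67 without C1 WT replicate 2 (adjusted p = 0.279) and to -0.82 without C1 dKO replicate 1 (adjusted p = 0.219). Leaving out 1 of C1 WT replicates 2 or 3, C1 dKO replicate 2, C1 LAPS replicates 2 or 3 or C2 dKO replicate 1 gave an adjusted p of 0.0249 to 0.0499 in C2, and the C2 change was smallest, at -0.85, without C2 dKO replicate 2 (adjusted p = 0.196). With the test run on recovered reads by edgeR, the adjusted p was 0.0421 in C1 and 0.0414 in C2, within ranges over 8 alternatives of 0.0421 to 0.144 and 0.0189 to 0.077.

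Sesn2 encodes sestrin 2, a stress protein that senses leucine and restrains the growth kinase complex mTORC1 (chr4:132492032-132510501, minus strand). Its normalized reads were 480.3, 591 and 384 in C1 WT, and 289.9, 398 and 399 in C1 dKO. In C2 they were 569, 636 and 628 in WT, and 512, 451 and 529.87 in dKO. Lower values stood in dKO in both clones, with overlap in C1 and none in C2. The change was -0.41 in C1 (SE 0.14, limma adjusted p = 0.0329) and -0.30 in C2 (SE 0.14, adjusted p = 0.117), and their difference was 0.12 (SE 0.20, adjusted p = 0.722). The C1 call was lost without C1 WT replicate 1 (-0.41, adjusted p = 0.0773), C1 WT replicate 2 or C1 dKO replicate 1 (both -0.26, adjusted p = 0.165). It was also lost under quantile normalization (0.0518) and with only the compared groups in the fit (0.158, range over 8 alternatives 0.0235 to 0.158). In that last fit the C2 change of Sesn2 was called (adjusted p = 0.0327, range over 8 alternatives 0.0327 to 0.166).

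Chac1 encodes a glutathione-degrading enzyme that is induced through ATF4 and CHOP (chr2:119351229-119354381, plus strand). It had 95, 171 and 76.4 normalized reads in C1 WT and 77.0, 129 and 97.1 in C1 dKO. It had 209, 129 and 150.25 in C2 WT and 187, 130.25 and 146 in C2 dKO. The groups overlapped in both clones, and the changes were -0.12 (SE 0.29, limma adjusted p = 0.782, 95% interval -0.74 to 0.49) in C1 and -0.06 (SE 0.29, adjusted p = 0.894, interval -0.68 to 0.55) in C2.

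The comparison of LAPS with dKO in C1 asks what LAP* changed in cells without both factors. Of the 10 genes, only Psat1 was called, as higher in LAPS than in dKO, a share of 10% beside a background of 4.46% of all tested genes (1.43% higher and 3.03% lower). The median change of the 10 genes was 0.17, beside 0.00 over all tested genes. This median depended on single libraries, and was smaller without C1 dKO replicate 1 and larger without C1 dKO replicate 2. LAPS and dKO libraries did not overlap for 4 of the 10 genes (Psat1, Phgdh, Sesn2 and Ddit3), where the background was 24.1%. Of the markers, Pecam1 moved with this comparison, from 386 ± 19.4 normalized reads in dKO to 153 ± 18.4 in LAPS (SD, n = 3; log2 change -1.33, limma adjusted p = 0.00115), and its part in the results was not tested. Among the myeloid markers, Kit was at -0.40 (adjusted p = 0.0608), Itgam at -0.42 (adjusted p = 0.291) and Mpo at -0.03 in LAPS against dKO, and none of the 3 passed the test. The comparison with dKO uses the same 3 C1 dKO libraries as the comparison of dKO with WT, so the 2 sets of values are not independent and are given side by side below.

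Psat1 had 5154, 5052 and 4424 normalized reads in LAPS, all above the highest dKO library (3933) and below the lowest WT library (5242). The change against dKO was 0.37 (SE 0.09, limma adjusted p = 0.0311) and that against WT was -0.14 (SE 0.09, adjusted p = 0.283). The rise was lost under 4 of 8 alternatives, among which the adjusted p ran from 0.0051 to 0.0777. It was also lost when any of the 3 C1 dKO libraries, or LAPS replicates 1 or 2, was left out (adjusted p from 0.0543 to 0.11). Phgdh had 1938, 1657 and 1489 normalized reads in LAPS, above all dKO libraries and far below all WT libraries. Its change was 0.41 against dKO (SE 0.14, adjusted p = 0.122, and 0.048 without C2 WT replicate 1) and -1.34 against WT (SE 0.14, adjusted p = 2.12e-06). Phgdh in LAPS therefore stayed 2.53-fold under WT.

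Ddit3 had 76.2, 88.5 and 57.45 normalized reads in LAPS, all below the lowest dKO library (111). Its change was -0.66 against dKO (SE 0.24, limma adjusted p = 0.143) and -0.69 against WT (SE 0.24, adjusted p = 0.0364). Against WT, 2 of the 10 genes were lower in LAPS (Phgdh and Ddit3) and none was higher, a share of 20% beside a background of 32.5% (14.2% higher and 18.3% lower). Libraries of LAPS and WT did not overlap for 2 of the 10 genes (Phgdh and Psat1), where the background was 40.9%. Markers moved with this comparison too, with log2 changes of 2.27 for Mpo, 0.79 for Kit, -0.37 for Ptprc, -2.19 for Afp and -1.51 for Pecam1 (limma adjusted p = 3.44e-06, 5.76e-05, 0.0461, 5.57e-06 and 2.42e-05), and their part in the results was not tested. The Ddit3 call was lost without C1 WT replicates 1 or 2 or LAPS replicates 1 or 3 (adjusted p from 0.0641 to 0.189), with the change at -0.41 without C1 WT replicate 2, -0.52 without LAPS replicate 3, -0.71 without C1 WT replicate 1 and -0.72 without LAPS replicate 1. It was also lost with only the compared groups in the fit (0.152, lowest of 8 alternatives 0.0166). Trib3 had 152, 182 and 61.1 normalized reads in LAPS, overlapping the dKO libraries. The Trib3 change was 0.05 against dKO (SE 0.45, adjusted p = 0.974) and -1.03 against WT (SE 0.45, adjusted p = 0.0899). Against WT it was -1.51 without C1 WT replicate 3 (adjusted p = 0.0125), -0.62 without C1 WT replicate 2 (adjusted p = 0.35) and -0.56 without LAPS replicate 3 (adjusted p = 0.38).

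The other 6 genes were not called in either LAPS comparison. Sesn2 had 406, 433 and 408 normalized reads in LAPS, above the highest dKO value of 399, with a change of 0.21 (SE 0.14, limma adjusted p = 0.475). Atf4 had 6599, 6410.2 and 4533 and a change of 0.11 (SE 0.14, adjusted p = 0.746). Atf5 had 1202, 1130.1 and 1029 and a change of 0.20 (SE 0.12, adjusted p = 0.401). All 3 changes were positive, and none passed the test. Asns had 2154, 2462 and 1942 (change 0.06, SE 0.12, adjusted p = 0.841), and Shmt2 had 4993, 4688 and 3951 (change 0.14, SE 0.11, adjusted p = 0.583). Chac1 had 152, 147 and 92.1 (change 0.36, SE 0.29, adjusted p = 0.567). For these 3 genes LAPS and dKO libraries overlapped.

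Samples of the same line tended to deviate in the same direction for many of the 10 genes. The deviation of each library from the mean of its group, in log2, was correlated between genes in 42 of 45 gene pairs with a positive sign, with a median Pearson r of 0.61 over the 15 libraries. The points share groups, libraries and size factors, so these values are a description. They were not computed for pairs of other genes, so the shared deviation cannot be called particular to these 10 genes. Between Trib3 and Chac1 r was 0.89, between Atf4 and Chac1 0.88 and between Psat1 and Shmt2 0.88. The lowest values were -0.30 for Ddit3 with Phgdh and -0.27 for Sesn2 with Phgdh. In C1 WT, replicate 2 lay above its group mean for 9 of the 10 genes (mean deviation 0.29) and replicate 3 below it for 9 (-0.27). LAPS replicate 3 lay below its group mean for all 10 genes (-0.29). In C1 dKO, replicate 1 was below the mean for 9 genes (-0.17) and replicate 2 above it for 9 (0.18). In C2 WT, replicate 1 was above the mean for 8 genes (0.20), whereas the mean deviations in C2 dKO stayed between -0.09 and 0.05. Without C1 WT replicate 3, 5 of the 10 genes were lower in C1 dKO in place of 3, with Atf5 and Trib3 added. Over all 12673 tested genes, 2553 were then lower in place of 2516.

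**Figure D3:**
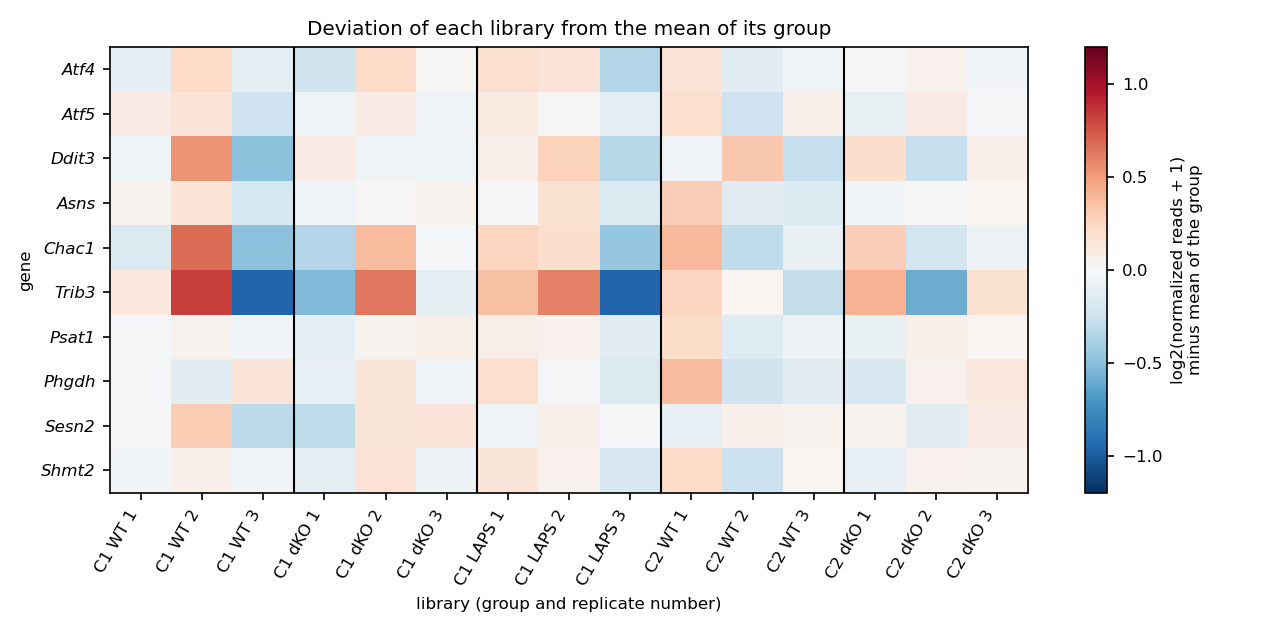
Deviation of each library (horizontal axis) from the mean of its group in log2(normalized reads + 1), as a color from blue (below) to red (above), for the 10 genes (vertical axis). The column of LAPS replicate 3 is blue for all 10 genes, that of C1 WT replicate 2 is red for 9, and Trib3 and Chac1 have the deepest colors.

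The wider pathway was followed in 7 lists of 93 genes, of which 88 were tested. Cebpa and Cebpb are among them, and their calls are fixed by the deletion and the construct, so counts here are over the other 86. Of these, 11 were higher and 36 lower in dKO in C1 (54.7%, background 37.0%, median log2 change -0.19). In C2, 14 were higher and 29 lower (50%, background 37.6%, median -0.17). Against dKO, LAPS had 5 higher and 1 lower (6.98%, background 4.46%, median 0.15). With Cebpb counted, the 6 higher became 14 under DESeq2 and 3 to 10 with a library left out (3 without C1 dKO replicate 1 or LAPS replicate 2, 10 without C1 WT replicate 3). The 1 lower became 0 under 4 of 8 alternatives, so this share depends on the processing. The count over all tested genes moved too, with 265 higher under DESeq2 in place of 181. Quantile normalization moved the split over all tested genes in C1 from 2170 higher and 2516 lower to 2681 higher and 2052 lower, and for LAPS against WT from 1796 higher and 2322 lower to 2521 higher and 1910 lower.

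Amino acid and one-carbon synthesis was the list closest to Phgdh, Psat1, Shmt2 and Asns. In C1 it had 7 of 13 genes lower and 2 higher (69.2%, background 37.0%, median -0.34). In C2 it had 5 lower and 1 higher (46.2%, background 37.6%, median -0.21). Cth, which makes cysteine from cystathionine, fell furthest in both clones. It went from 176 ± 84.6 to 9.22 ± 4.74 normalized reads in C1 (-4.09, SE 0.47, limma adjusted p = 4.89e-06) and from 544 ± 236 to 95.6 ± 38.0 in C2 (-2.51, SE 0.47, adjusted p = 0.000578; SD, n = 3). Glul, glutamine synthetase, was the gene of this list called as higher in LAPS than in dKO (0.66, SE 0.11, adjusted p = 0.00343). Mthfd1, a cytosolic folate enzyme, rose in C1 (0.69, SE 0.12, adjusted p = 0.000195).

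Amino acid transporters had 4 of 10 genes lower and 2 higher in C1 (60%, background 37.0%). In C2, 2 were lower and 2 higher (40%), near the background of 37.6%. Slc7a11, the cystine transporter, fell furthest in C1 (-0.81, SE 0.30, limma adjusted p = 0.0436). Slc43a1, a transporter of large neutral amino acids with few reads, rose in C1 (from 4.39 ± 1.49 to 23.4 ± 10.4 normalized reads) and fell in C2 (from 28.7 ± 2.47 to 4.11 ± 1.02; SD, n = 3). In LAPS, 2 of the 10 transporters were higher than in dKO (20% called, background 4.46%), with Slc38a1, a glutamine carrier, at 0.45 (SE 0.07, adjusted p = 0.00154). Aminoacyl-tRNA synthetases with the tRNA exporter Xpot had 6 of 13 genes lower and none higher in C1 (46.2%, background 37.0%). In C2, 4 were lower and 3 higher (53.8%, background 37.6%). Aars fell furthest in C1 (-0.37, SE 0.09, adjusted p = 0.00592) and Cars in C2 (-0.64, SE 0.10, adjusted p = 6.91e-05), where Eprs rose most (0.63, SE 0.07, adjusted p = 4.59e-06).

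The eIF2 kinases, phosphatase and eIF2B subunits, upstream of ATF4, had 1 of 13 genes lower and 2 higher in C1 (23.1%, background 37.0%, median -0.02). In C2, 1 was lower and 3 were higher (30.8%, background 37.6%, median -0.04), so both shares lay below the background. Eif2ak2, the kinase PKR, which senses double-stranded RNA, fell in C1 (-1.31, SE 0.16, limma adjusted p = 9.05e-06) and rose in C2 (0.66, SE 0.16, adjusted p = 0.0041). Other targets of ATF4 and CHOP had 5 of 13 genes lower and 1 higher in C1 (46.2%, background 37.0%). In C2, 6 were lower and 1 higher (53.8%, background 37.6%). Ero1l, an oxidase of the endoplasmic reticulum, fell furthest in C1 (-1.45, SE 0.32, adjusted p = 0.00218), and Ddit4, an mTORC1 inhibitor, rose there (1.06, SE 0.22, adjusted p = 0.00129). In C2, the peptide hormone gene Adm2 fell furthest (-2.14, SE 0.71, adjusted p = 0.0258) and Bbc3, which encodes the cell death protein PUMA, rose (0.75, SE 0.19, adjusted p = 0.00639). Genes of the ATF6 and IRE1 branches of the unfolded protein response had 9 of 15 lower and 1 higher in C1 (66.7%, background 37.0%). In C2, 7 were lower and 2 higher (60%, background 37.6%). Dnajb9, a chaperone of the endoplasmic reticulum, fell furthest in C1 (-0.98, SE 0.25, adjusted p = 0.00623) and Sel1l, a part of the degradation machinery, in C2 (-0.67, SE 0.06, adjusted p = 4.55e-07). The largest rises of this list were those of Pdia6, a disulfide isomerase, in C1 (0.59, SE 0.08, adjusted p = 4.4e-05) and of Calr, the chaperone calreticulin, in C2 (0.60, SE 0.11, adjusted p = 0.000427).

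**Figure D4:**
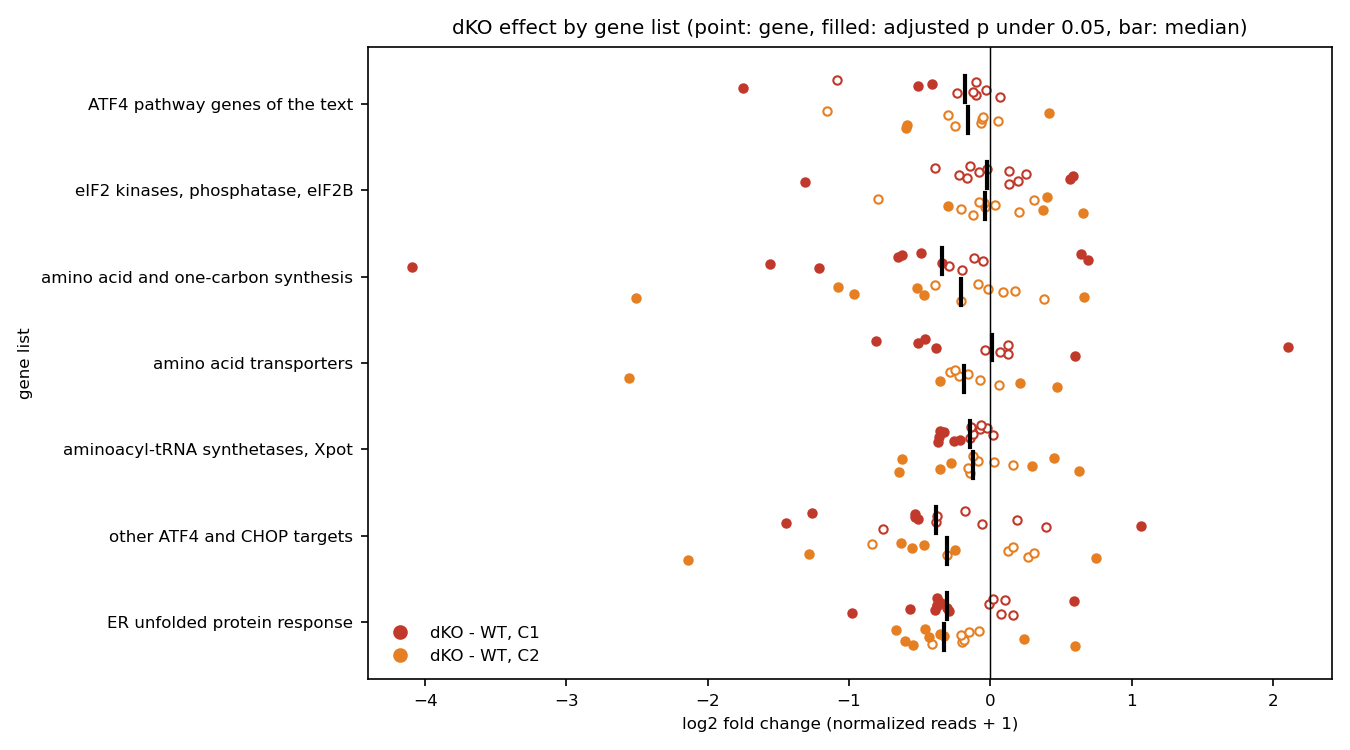
Log2 fold changes of dKO against WT (horizontal axis) for each tested gene of 7 groups (vertical axis), the 10 genes of the text and 6 of the 7 pathway lists, in C1 (red) and C2 (orange), with filled points where the limma adjusted p was under 0.05 and a bar at the median. The list with the deleted Cebpa and Cebpb is left out, and the point furthest left is Cth in C1 (-4.09).

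The bZIP list holds the deleted genes themselves and the possible partners of ATF4 and CHOP. Of its 9 tested genes other than Cebpa and Cebpb, 4 were lower and 3 higher in C1 (77.8%, background 37.0%). In C2, 4 were lower and 2 higher (66.7%, background 37.6%). Cebpe, a C/EBP factor of granulocyte maturation, rose from 408 ± 55.8 to 2107 ± 143 normalized reads in C1 (2.37, SE 0.10, limma adjusted p = 8.01e-11) and from 505 ± 10.5 to 2166 ± 51.9 in C2 (2.10, SE 0.10, adjusted p = 3.59e-10; SD, n = 3). Cebpg, a partner of ATF4, rose in C2 (0.98, SE 0.16, adjusted p = 0.000216) and stood at 0.33 in C1 (adjusted p = 0.136). Nfe2l2, the antioxidant regulator NRF2, fell in C1 (-0.55, adjusted p = 0.00122) and in C2 (-0.63, adjusted p = 0.000348), and Nfil3 fell in C1 (-0.81, adjusted p = 0.0112) and in C2 (-0.76, adjusted p = 0.0161). Atf3, an early stress factor, fell in C1 (-3.27, SE 0.45, adjusted p = 3.27e-05) and was at -1.05 in C2 (adjusted p = 0.0814). Among these factors, only Cebpb was called in LAPS against dKO, through the construct.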

How the data were processed

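RNA was sequenced as stranded paired-end mRNA libraries. Per the submitters' processing notes, reads were aligned with STAR 2.5.3a to mm10 and counted with HTSeq 0.10.0, and the deposited values are a signal, reads per gene that the authors divided by DESeq2 1.26.0 size factors. The annotation release and the strand setting of the counting are not given in the sources used here. Exon lengths and positions were taken from GENCODE vM21. Whole reads were recovered from the steps of the values (within 0.1 of a whole number for at least 99.99% of values), and they were used for depth and for the count tests. Rows that name no gene (22.4 to 26.2% of reads) and 3 columns with no matching sample were left out.

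Values were tested as log2(normalized reads + 1) with limma 3.58.1 over all 15 libraries, with 1 mean per group, a trended prior and Benjamini-Hochberg adjustment over 12673 genes (R 4.3.3). Positive changes mean higher in the first group named. On simulated data for dKO against WT in C1 with 200 changed genes, 32% were called at a log2 change of 0.5 and 78.5% at 1. In the data a far larger share was called in this comparison (37.0% of tested genes). The adjustment was therefore stricter in the simulation, and these rates do not give the sensitivity of the test on the data. Alternatives were pseudocounts of 0.1 and 5, no filter, quantile normalization, only the compared groups, a replicate block, edgeR 4.0.16 and DESeq2 1.42.0 on recovered reads, and leaving out each library. Named companion genes are the largest rise and fall of a list per comparison, and any gene of the bZIP list; some genes these rules select are not reported here. Members and lists were chosen with earlier results of these data known.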

Additional observations from a re-analysis of the deposited data

Results flagged for a closer look

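The difference between dKO and WT was not the same in the clones by a direct test (the dKO effect in C2 minus that in C1, limma adjusted p under 0.05) for 4 of the 10 genes, beside a background of 29.4% of all tested genes (15.1% higher and 14.3% lower in C2). The log2 differences were 1.70 for Phgdh, 0.52 for Shmt2, 0.46 for Psat1 and -0.66 for Asns. In the wider pathway lists, 27 of 86 genes passed this test (31.4%), near the background. Among those the text could name, the difference was 1.97 for Eif2ak2, 2.22 for Atf3, 1.60 for Aldh1l2, 0.84 for Eprs, 0.65 for Cebpg, 0.54 for Hsp90b1 and 0.50 for Atf6. It was -4.66 for Slc43a1, -1.14 for Jdp2, -1.04 for Pycr1, -0.79 for Cebpd, -0.74 for Pdia6, -0.62 for Eif2b2 and -0.61 for Wars. Slc43a1 had few reads, with means of 4.39 normalized reads in C1 WT and 4.11 in C2 dKO. These lay near the level of 3 reads per library (2.65 to 4.01 normalized reads), so the size of its difference is uncertain. Of the genes named in this paragraph, Eif2ak2, Slc43a1, Jdp2, Hsp90b1 and Eprs passed the test in both clones with opposite signs. Each clone is 1 dKO line, so a difference between clones and a difference between mice cannot be told apart.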

How the results depend on the processing

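Over the 10 genes and 5 comparisons, 400 values were recomputed under the 8 alternatives. Of these, 384 kept their direction and their side of the threshold or changed sign without being called (6 did), 9 lost a call and 7 gained one. Of 750 values with a library left out, 718 were unmoved in this sense (41 uncalled values changed sign), 19 lost a call and 13 gained one. No called value changed sign.

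With only the groups compared in the fit, 4 members were lower in C2 dKO, 0 were higher in LAPS than in dKO and 1 was lower in LAPS than in WT. Over all 12673 tested genes, the same 3 counts were 2535, 86 and 1836 in this fit. With all groups in the fit they were 2549, 181 and 2322. Under quantile normalization, 1 member was higher in the difference between clones and 0 in LAPS against dKO. Of all tested genes, 1752 and 208 were higher there, beside 1910 and 181 without it. Without a filter and with a replicate block, 0 members were higher in LAPS against dKO. Of all genes, 139 of 24520 and 150 of 12673 were higher in these settings. For the wider lists in LAPS against dKO, DESeq2 called 14 higher and 2 lower (6 and 1 in the limma test, Cebpb included). Over all tested genes, DESeq2 called 265 higher and 522 lower (181 and 384 in the limma test). In the wider lists, 0 were lower with a pseudocount of 0.1, no filter, quantile normalization or a replicate block. Over all genes, 309, 326, 377 and 338 were lower in these settings. The cause was not tested.

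Leaving out each library in turn gave 2 to 5 members lower in C1 dKO (5 without C1 WT replicate 3), 0 to 1 higher in C2 dKO (0 without C2 WT replicate 2) and 2 to 3 lower there. Over all tested genes, 2553 were lower in C1 dKO without C1 WT replicate 3, in place of 2516. Without C2 WT replicate 2, 1870 of them were higher in C2 dKO, in place of 2211. The difference between clones had 2 to 3 members higher and 1 to 2 lower (2 without C2 WT replicate 2). Without that library, 1493 of all tested genes were lower, in place of 1810. LAPS against dKO had 0 to 2 members higher (0 without any C1 dKO library or LAPS replicates 1 or 2, and 2 without C2 WT replicate 1). Over all tested genes, 181 were higher with all 15 libraries. Left out in turn, C1 dKO replicates 1, 2 and 3 gave 91, 79 and 142. LAPS replicates 1 and 2 gave 175 and 75, and C2 WT replicate 1 gave 175. LAPS against WT had 1 to 3 members lower (1 without C1 WT replicates 1 or 2 or LAPS replicates 1 or 3). Without these libraries, in that order, 1995, 2037, 2065 and 2021 of all tested genes were lower, in place of 2322. For the wider lists, LAPS against dKO had 3 to 10 higher (3 without C1 dKO replicate 1 or LAPS replicate 2, and 10 without C1 WT replicate 3) and 0 to 2 lower, and LAPS against WT had 15 to 28 lower (28 without C1 WT replicate 3). Without C1 WT replicate 3, 259 of all tested genes were higher in LAPS against dKO and 2352 were lower in LAPS against WT.

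Samples of different groups share replicate numbers, but no label ties them. Deviations of same-numbered samples correlated at -0.02 to 0.13 between dKO and WT in C1, -0.17 to 0.06 in C2, -0.13 to 0.10 between LAPS and dKO and -0.04 to 0.30 between LAPS and WT. With the replicate block, 0 members were called in LAPS against dKO, where 150 of all tested genes were higher and 338 lower. Trib3 was called with that block as lower in dKO in C1 (limma adjusted p = 0.0482) and C2 (adjusted p = 0.0366). The genes with the fewest reads were Trib3 (67 to 592 per library), Ddit3 (63 to 191) and Chac1 (68 to 210), and how much of their spread is counting error was not tested.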

Other observations

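Among the tested genes outside the 10, those whose log2 values followed the mean standardized profile of the 10 genes most closely over the 15 libraries included Aldh18a1 (Pearson r = 0.918), which opens proline synthesis, and Slc7a1 (0.905), an arginine and lysine transporter. They also included Mthfd2 (0.899), a mitochondrial folate enzyme, and Nars (0.888), the asparaginyl-tRNA synthetase. Of the 100 closest genes, 13 were among the 88 tested genes of the wider pathway lists. The libraries share groups and lines, so these correlations are a description.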
